A study of Drosophila melanogaster with 6 samples.

Results

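Nuclear genes for subunits of the mitochondrial respiratory chain and the ATP synthase were followed in wing discs that overexpressed the transcription factor CncC, the Drosophila counterpart of Nrf2, and in control discs. The genes were chosen by symbol alone, as every gene whose symbol begins with ND-, with Sdh and a letter from A to D, with UQCR-, with COX and a number, or with ATPsyn. The rule found 87 genes among the 13955 counted, and all 87 had a row in every library. An L at the end of the symbol, alone or followed by a number, marks 24 of them as paralogs of another subunit gene, and the other 63 comprise 34 genes of complex I, 4 of complex II, 6 of complex III, 8 of complex IV and 11 of complex V. No assembly factor matched the rule.

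The wing disc is the larval epithelium that forms the adult wing, and total RNA of discs from wandering L3 females kept at 28 °C was sequenced in 3 CncC overexpression and 3 control libraries. By the study's methods, the CncC overexpression larvae carried hs-FLP, a tub>>Gal4 driver with UAS-CD8-GFP, tub-Gal80ts and UAS-nrf2, and the control larvae carried all of these except UAS-nrf2. The labels instead call the controls wild type, with yw in their titles, and if that is so, CncC cannot be told apart from the strain, the Gal4 driver or tub-Gal80ts. By the same methods, the driver had been made beforehand by flipping out a tub>CD2>Gal4 stock. A measured share of disc cells in which it was active is not given in the sources used here. Whether replicates came from separate crosses is not given either, so that p-values measure the spread between these libraries only.

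The respiratory chain passes electrons from NADH (complex I) or succinate (complex II) to ubiquinone, from there through complex III and cytochrome c to complex IV, and on to oxygen. Complexes I, III and IV pump protons across the inner mitochondrial membrane, and complex V, the ATP synthase, makes ATP as the protons flow back. Most subunits are encoded in the nucleus and a few in mitochondrial DNA, and in Drosophila many nuclear subunit genes have a second copy that is best known from the testis.

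The libraries held between 16464410 and 16682764 counts. The overexpressed gene itself, cnc, had 84044, 147169 and 172120 counts in CncC overexpression replicates 1 to 3, against 1983, 1777 and 1848 counts in control replicates 1 to 3. Of 10 wing disc markers listed, 8 were matched by symbol, and each had at least 282 counts in every library. With CncC overexpression 4 of these were higher and 1 lower, while ap and wg were not matched and are not reported here. Of 12 male germline markers, 11 had at most 5 counts in every library, the exception being mia. Summed muscle markers ranged from 88.9 to 263 CPM (counts scaled to the total of each library) with CncC overexpression and from 69.5 to 134 in control, with 2 of 5 genes higher. Tracheal markers ranged from 1307 to 1617 CPM with CncC overexpression and from 963 to 1067 in control, with 2 of 3 higher. Haemocyte markers ranged from 59.1 to 65.0 CPM with CncC overexpression and from 54.4 to 61.8 in control, with 1 of 3 tested higher (Pxn, 0.54, edgeR adjusted p = 0.0127). Fat body markers ranged from 10.9 to 85.9 CPM with CncC overexpression and from 9.96 to 439 in control, with edgeR adjusted p from 0.0803 to 0.32 over the 6 genes. The part of these cell types in the results below was not tested. In bulk libraries, fewer cells of a type and less RNA per cell cannot be told apart.

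Expression of the subunit genes was lower with CncC overexpression in almost every case. Of the 63 genes without an L suffix, 62 had enough counts to be tested with edgeR's quasi-likelihood test. At an adjusted p under 0.05, 56 of the 62 were lower, 1 (SdhA) was higher, and 5 (ND-20, ND-MNLL, ND-B14.5A, ND-75 and SdhB) did not pass. Over all 8361 genes tested, 31.6% were lower and 30.9% were higher. The median log2 fold change, CncC overexpression over control, was -0.79 for the subunit genes (a fold of 0.579), with a range from -1.66 to 0.41, beside -0.01 for all genes tested. With a fold of at most 0.6 also required, 35 of the 62 were lower, beside 12.4% of all genes, and 18 had a log2 fold change of -1 or below, beside 6.78%. In 56 of the 62 genes every CncC overexpression library lay below every control library, as in 34.9% of all genes. These 56 include SdhB, which did not pass the test, and leave out ND-SGDH, which did.

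**Figure D1:**
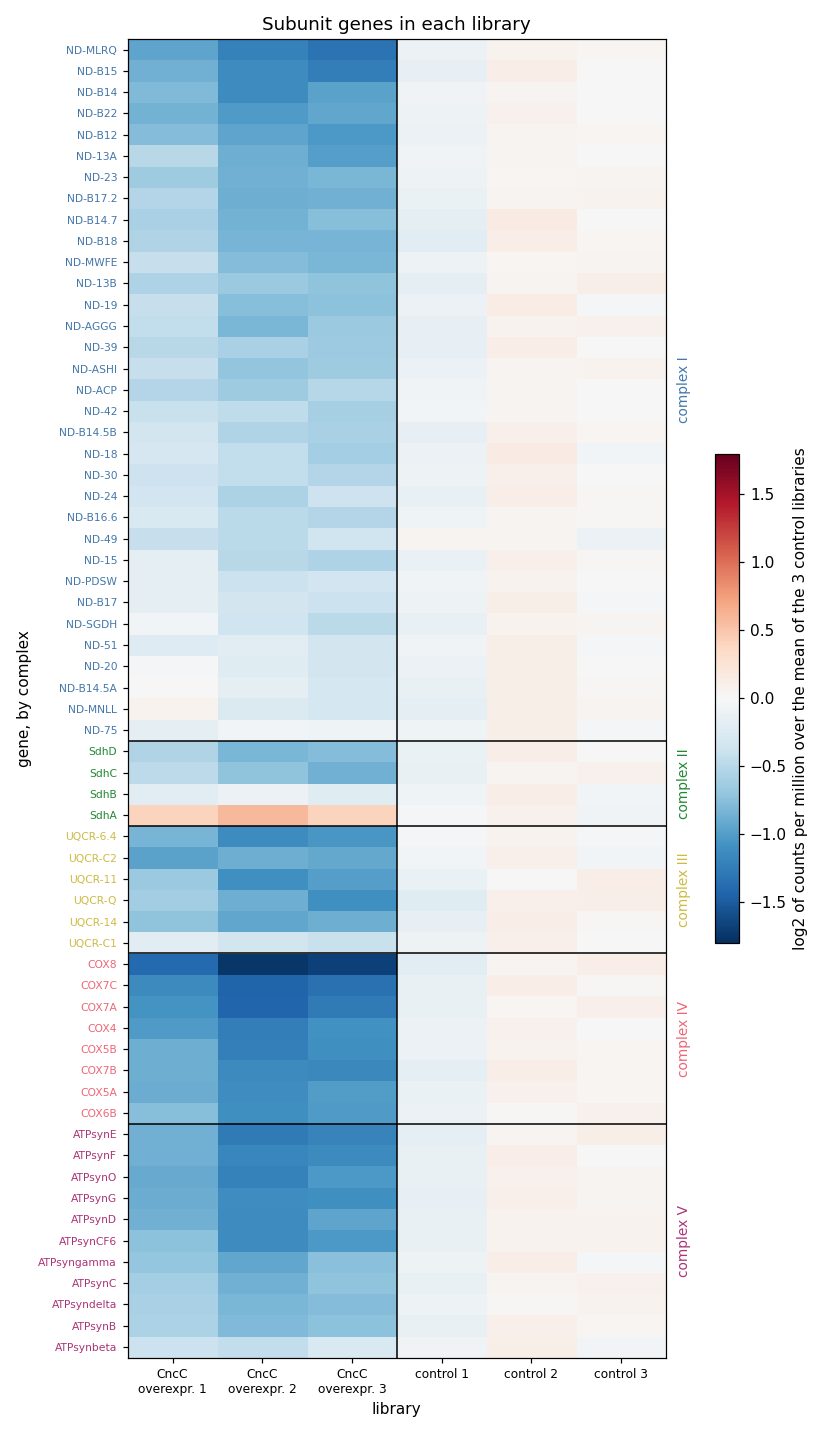
Each row is 1 of the 62 tested subunit genes without an L suffix, and each column 1 library. The colour is the log2 of a gene's CPM over its mean in the 3 control libraries. Nearly all rows are blue in the 3 CncC overexpression columns, with the row of SdhA red, the palest rows at the bottom of complex I and the darkest in complex IV, where COX8 is lowest.

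Together the 63 genes took 0.807%, 0.711% and 0.736% of all counts in CncC overexpression replicates 1 to 3, against 1.11%, 1.26% and 1.22% in control replicates 1 to 3. The groups were well apart, with a ratio of the means of 0.628, or 0.633 when cnc was left out of the totals. By complex, the ratio of summed shares was 0.705 for complex I, 0.98 for complex II, 0.634 for complex III, 0.456 for complex IV and 0.605 for complex V. Complex II alone had overlapping sums, with 0.0507%, 0.0526% and 0.0477% of counts with CncC overexpression against 0.0489%, 0.0547% and 0.0505% in control. The libraries of a group also differed among themselves in a common direction. CncC overexpression replicate 1 was the highest of its group for 53 of the 62 genes. Control replicate 1 was the lowest of its group for 61, and control replicate 2 the highest for 55. CncC overexpression replicate 1 had the fewest cnc counts of its group. It also had the most counts of each matched muscle marker, with 820 for Mhc against 331 and 254 in replicates 2 and 3. Among controls, replicate 2 had the most of each, with 266 for Mhc against 37 and 48 in replicates 1 and 3. Whether cnc or muscle content bears on the order of the libraries was not tested.

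The median change differed between complexes, and the values below are descriptions, since genes of a complex are not replicates. Complex I had 29 of 33 tested genes lower and a median log2 fold change of -0.61. Complex II had 2 of 4 lower and 1 higher, with a median of -0.48. The other complexes were lower throughout, with 6 of 6 genes and a median of -0.94 in complex III, 8 of 8 and -1.15 in complex IV, and 11 of 11 and -1.01 in complex V. With a fold of at most 0.6 required, the counts were 10, 2, 5, 8 and 10 for complexes I to V. The smallest decrease in complex IV, that of COX6B at -1.02, equalled or exceeded all but 2 of those in complex I.

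**Figure D2:**
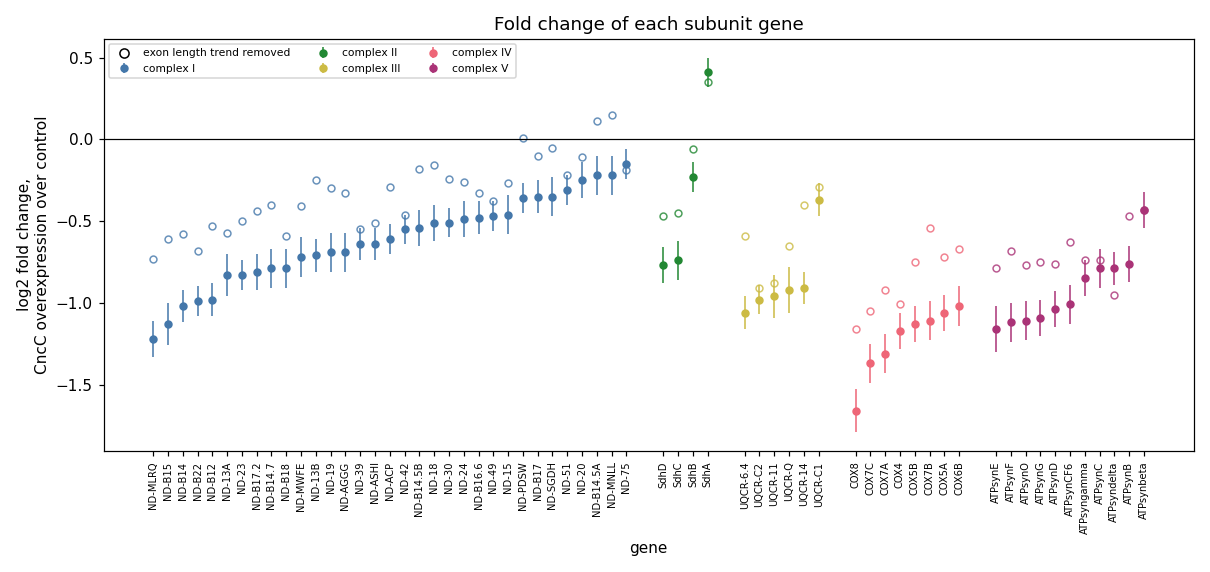
Log2 fold change (CncC overexpression over control, y axis) of each of the 62 tested genes without an L suffix, grouped by complex (filled points, bars are standard errors), with the value after removal of the trend with exon length as open points. Complex IV lies between -1.66 and -1.02, complex I between -1.22 and -0.15, and SdhA is the only point above 0 before the trend is removed.

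Complex I accepts electrons from NADH in a peripheral arm that holds the flavin and the iron-sulfur clusters, and its 7 nuclear core subunits all belong to that arm. Of these, 5 were lower, with a median log2 fold change of -0.47. ND-75, the largest core subunit and a carrier of iron-sulfur clusters, had 2625, 2822 and 2792 counts with CncC overexpression, against 2771, 3157 and 2823 in control. The groups overlapped, and the log2 fold change of -0.15 ± 0.09 (SE) did not pass the test (edgeR adjusted p = 0.183), although it passed with upper-quartile scaling (-0.23, edgeR adjusted p = 0.0447). ND-51, the flavin-bearing subunit where NADH binds, had 2331, 2380 and 2176 counts with CncC overexpression against 2606, 2940 and 2629 in control (-0.31 ± 0.09, edgeR adjusted p = 0.0132). Its call was lost without control replicate 2, where the log2 fold change was -0.24 (edgeR adjusted p = 0.0584). ND-49, which lines the ubiquinone pocket, had 2110, 2004 and 2187 counts with CncC overexpression against 2894, 2895 and 2585 in control (-0.47 ± 0.09, edgeR adjusted p = 0.0011). ND-23, an iron-sulfur subunit next to that pocket, had the largest decrease of the core, with 803, 687 and 707 counts with CncC overexpression against 1172, 1278 and 1278 in control (-0.83 ± 0.09, edgeR adjusted p = 6.21e-05). The remaining core genes were ND-24 at -0.49 and ND-30 at -0.51, both lower, and ND-20 at -0.25, which did not pass (edgeR adjusted p = 0.06) except with upper-quartile scaling or without replicate 1 of either group.

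The accessory subunits surround this core. Of 27 such genes 26 were tested, 24 were lower, and the median log2 fold change was -0.67. The median exon length was 788 bases for these genes and 1336 for the core. With the exon length trend removed, the medians were -0.37 and -0.24, with 20 accessory and 5 core genes lower. ND-MLRQ had the largest decrease, with 1291, 1080 and 999 counts with CncC overexpression, against 2321, 2611 and 2548 in control (-1.22 ± 0.11, edgeR adjusted p = 2.28e-05). Its mammalian counterpart is counted with complex IV rather than complex I, and its change lay within the range of the complex IV genes. The ratio of ND-75 to ND-MLRQ counts was 2.03, 2.61 and 2.79 with CncC overexpression and 1.19, 1.21 and 1.11 in control, without overlap. ND-75 has 2634 exon bases and ND-MLRQ 538, and with the exon length trend removed they were at -0.19 and -0.73. ND-B15 followed, with 442, 366 and 338 counts with CncC overexpression against 723, 877 and 797 in control (-1.13 ± 0.13, edgeR adjusted p = 6.16e-05). In both genes each CncC overexpression library held well under the lowest control count. ND-B14, at -1.02, ND-B22, at -0.99, and ND-B12, at -0.98, were the next largest. ND-B14.7, an accessory subunit of the membrane arm, had 849, 705 and 752 counts with CncC overexpression against 1125, 1412 and 1268 in control (-0.79 ± 0.12, edgeR adjusted p = 2.89e-04). ND-42, from the same arm, had 2071, 1992 and 1818 counts with CncC overexpression against 2646, 2836 and 2721 in control (-0.55 ± 0.09, edgeR adjusted p = 4.80e-04). ND-ACP, the acyl carrier protein of the mitochondrion as well as a subunit, was lower at -0.61.

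At the other end of the accessory genes, ND-B14.5A had 439, 388 and 354 counts with CncC overexpression, against 400, 474 and 441 in control, and ND-MNLL had 871, 696 and 670 with CncC overexpression against 746, 898 and 850 in control. In both the groups overlapped, the log2 fold change was -0.22 ± 0.12, and the test was not passed (edgeR adjusted p = 0.133 and 0.14), although each passed without replicate 1 of either group. All exon bases of ND-MNLL also belong to CG45089 on the same strand, so that its reads cannot be assigned to 1 gene. ND-SGDH passed narrowly at -0.35 ± 0.12 (edgeR adjusted p = 0.032), with 1960, 1587 and 1447 counts with CncC overexpression against 1847, 2132 and 2080 in control, and lost its call without CncC overexpression replicate 2 or 3 or control replicate 2 or 3 (edgeR adjusted p from 0.094 to 0.125). ND-B8 was the only gene without an L suffix that could not be tested, with 0 counts in 5 libraries and 2 in control replicate 3.

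Complex II, succinate dehydrogenase, is the one complex encoded wholly in the nucleus, and it also takes part in the TCA cycle. It has a catalytic flavoprotein (SdhA), an iron-sulfur subunit (SdhB) and 2 membrane anchors (SdhC and SdhD), and these did not move together. SdhA, on chromosome 2R from 19391863 to 19395971, had 4353, 4914 and 4343 counts with CncC overexpression, against 3228, 3487 and 3102 in control. Every CncC overexpression library was above every control library, and SdhA was the only subunit gene that rose (0.41 ± 0.09, a fold of 1.32, edgeR adjusted p = 0.00406). It was higher in each of the alternative fits, at a fold under the limit of 1.4. SdhB had 1899, 2020 and 1870 counts with CncC overexpression against 2060, 2357 and 2068 in control. The groups did not overlap, but the log2 fold change of -0.23 ± 0.09 lay at the threshold (edgeR adjusted p = 0.0501), and it passed with upper-quartile scaling, with a minimum of 10 counts in every library and without control replicate 1. Both anchors fell. SdhC had 1293, 1090 and 988 counts with CncC overexpression against 1629, 1870 and 1867 in control (-0.74 ± 0.12, edgeR adjusted p = 4.05e-04), and SdhD had 894, 736 and 757 with CncC overexpression against 1192, 1410 and 1285 in control (-0.77 ± 0.11, edgeR adjusted p = 2.19e-04).

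The balance of transcripts within complex II can be read inside each library, where scaling between libraries cancels. The trend with exon length does not cancel, and SdhA has 2750 exon bases against 894 in SdhD. With that trend removed, SdhA was at 0.35, SdhB at -0.06, SdhC at -0.45 and SdhD at -0.47. The ratio of SdhA to SdhD counts was 4.87, 6.68 and 5.74 with CncC overexpression, against 2.71, 2.47 and 2.41 in control. For SdhA to SdhC it was 3.37, 4.51 and 4.4 with CncC overexpression against 1.98, 1.86 and 1.66 in control, and for SdhA to SdhB 2.29, 2.43 and 2.32 with CncC overexpression against 1.57, 1.48 and 1.5 in control. None of these ratios overlapped between the groups. They are 3 of 7 ratios that were chosen after the values were seen, and each of the 7 gave an exact two-sided permutation p of 0.1, the smallest that 3 against 3 libraries allow, which stays at 0.1 after adjustment over the 7. Measured as CPM per kb of exon, SdhA was the highest of the 4 genes with CncC overexpression, at 99.1 ± 7.19, within the spread of SdhB at 95.1 ± 3.98 (SD, n = 3). In control it was the lowest, at 71.8 ± 3.85 beside 119 ± 9.32 for SdhC, the highest (SD, n = 3).

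Complex III moves electrons from ubiquinol to cytochrome c, and all 6 of its genes chosen here were lower. Its 2 core proteins, which face the matrix and descend from a processing peptidase, differed in size of change. UQCR-C1 had 5298, 4841 and 4623 counts with CncC overexpression, against 5740, 6514 and 6022 in control (-0.37 ± 0.10, edgeR adjusted p = 0.0096). UQCR-C2 had 1922, 2044 and 1985 counts with CncC overexpression against 3612, 4017 and 3603 in control (-0.98 ± 0.09, edgeR adjusted p = 2.35e-05). The ratio of UQCR-C1 to UQCR-C2 counts was 2.76, 2.37 and 2.33 with CncC overexpression and 1.59, 1.62 and 1.67 in control, again without overlap. The small subunits were near UQCR-C2. UQCR-6.4 had 449, 368 and 389 counts with CncC overexpression against 786, 840 and 780 in control (-1.06 ± 0.10, edgeR adjusted p = 2.99e-05), UQCR-11 was at -0.96 and UQCR-Q, a subunit near the quinone site, at -0.92, with 1385, 1163 and 998 counts with CncC overexpression against 1833, 2288 and 2264 in control. UQCR-14 had 761, 659 and 684 counts with CncC overexpression against 1138, 1366 and 1262 in control (-0.91 ± 0.10, edgeR adjusted p = 6.91e-05). All its exon bases lie opposite CG32576, and 40.5% of those of UQCR-6.4 opposite POSH, so that without knowledge of strand their reads cannot be separated.

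Complex IV, cytochrome c oxidase, reduces oxygen. Its catalytic core is encoded in mitochondrial DNA, and the 8 nuclear genes chosen here encode small subunits around it. All 8 were lower by more than the spread between libraries. COX8, on chromosome 3L from 21538859 to 21539447, had the largest decrease of all 62 genes, with 821, 639 and 672 counts with CncC overexpression, against 1896, 2245 and 2313 in control. That is 696 ± 96.8 normalized counts with CncC overexpression and 2206 ± 296 in control (SD, n = 3 each) and a log2 fold change of -1.66 ± 0.13 (edgeR adjusted p = 9.31e-06). COX7C had 1338, 1093 and 1169 counts with CncC overexpression against 2692, 3222 and 2970 in control (-1.37 ± 0.12, edgeR adjusted p = 1.50e-05), and COX7A had 2411, 1892 and 2104 with CncC overexpression against 4611, 5225 and 5330 in control, at -1.31. The folds of these 3 genes were 0.315, 0.387 and 0.404.

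The other 5 genes of complex IV had smaller decreases that were much alike. COX4, the largest nuclear subunit, had 2135, 1822 and 2042 counts with CncC overexpression, against 4027, 4599 and 4317 in control (-1.17 ± 0.11, edgeR adjusted p = 2.14e-05). COX5B, a zinc-binding subunit on the matrix side, had 1432, 1123 and 1232 counts with CncC overexpression against 2440, 2775 and 2687 in control, at -1.13. COX5A, also on the matrix side, had 2319, 1982 and 2156 with CncC overexpression against 3970, 4548 and 4377 in control, at -1.06. COX6B, on the side of cytochrome c, had 2886, 2267 and 2410 counts with CncC overexpression against 4546, 4987 and 5086 in control, at -1.02, and COX7B was at -1.11. The standard errors of these 5 genes lay between 0.11 and 0.12, and the differences among them were not tested.

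Complex V has a catalytic head (F1), a membrane part with the rotating ring, and a peripheral stalk that holds the head still. All 11 genes were lower, and the median log2 fold change was -0.79 over 3 F1 genes, -1.03 over 4 peripheral stalk genes and -1.10 over 4 membrane genes. The median exon lengths of these parts were 2386, 860 and 754 bases. With the exon length trend removed, their medians were -0.74, -0.69 and -0.74, so that this order did not remain. ATPsynbeta, the catalytic subunit, changed least, with 14953, 14384 and 16252 counts with CncC overexpression, against 18686, 21083 and 18759 in control (-0.43 ± 0.11, edgeR adjusted p = 0.00765). ATPsyngamma, the shaft inside the head, had 4997, 4243 and 4801 counts with CncC overexpression against 7550, 8808 and 7864 in control (-0.85 ± 0.11, edgeR adjusted p = 1.64e-04). ATPsyndelta, at the foot of the shaft, was at -0.79. The alpha subunit that alternates with beta in the head is encoded by blw, whose symbol the rule does not match. It had 14594, 12670 and 15038 counts with CncC overexpression against 22495, 25301 and 23804 in control (-0.82 ± 0.12, edgeR adjusted p = 2.38e-04), so that the ratio of ATPsynbeta to blw was 1.02, 1.14 and 1.08 with CncC overexpression and 0.831, 0.833 and 0.788 in control.

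In the peripheral stalk, ATPsynO, which joins the stalk to the head, had 2736, 2209 and 2501 counts with CncC overexpression, against 4653, 5424 and 5241 in control (-1.11 ± 0.12, edgeR adjusted p = 4.66e-05). The ratio of ATPsynbeta to ATPsynO counts was 5.47, 6.51 and 6.5 with CncC overexpression and 4.02, 3.89 and 3.58 in control. ATPsynbeta has 2386 exon bases and ATPsynO 802, and with the exon length trend removed they were at -0.43 and -0.77. ATPsynD had 2783, 2323 and 2620 counts with CncC overexpression against 4616, 5301 and 5227 in control, at -1.04, and ATPsynCF6 was at -1.01. ATPsynB had the smallest decrease of the stalk, with 3891, 3322 and 3461 counts with CncC overexpression against 5227, 6187 and 5835 in control (-0.76 ± 0.11, edgeR adjusted p = 3.04e-04). In the membrane part, ATPsynE and ATPsynF had the largest decreases of the complex before the exon length trend was removed. After removal, ATPsynE was at -0.79, ATPsynF at -0.68 and ATPsyndelta lowest, at -0.95. ATPsyndelta has 3817 exon bases, the most of the complex, and 35.6% of them lie opposite CG2962. ATPsynE had 2162, 1630 and 1707 counts with CncC overexpression against 3472, 4093 and 4195 in control (-1.16 ± 0.14, edgeR adjusted p = 7.10e-05), and ATPsynF had 2703, 2180 and 2232 with CncC overexpression against 4489, 5346 and 4883 in control (-1.12 ± 0.12, edgeR adjusted p = 4.95e-05). ATPsynG was at -1.09. ATPsynC, which builds the rotating ring in many copies per enzyme, had 17951, 15107 and 16695 counts with CncC overexpression against 25032, 28501 and 28694 in control (-0.79 ± 0.12, edgeR adjusted p = 3.48e-04).

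Levels of the genes can be compared with each other only per length of exon. In CPM per kb of exon, the median levels over complexes I to V were 63.8, 84.8, 71.7, 133 and 186 with CncC overexpression. In control they were 101, 97.2, 133, 289 and 338. Complexes IV and V thus had the highest levels in both groups. ATPsynC was the highest gene, at 533 ± 45.8 with CncC overexpression and 885 ± 67.7 in control, followed by ATPsynbeta at 382 ± 23.8 with CncC overexpression and 493 ± 31.8 in control (SD, n = 3 each). With CncC overexpression, ATPsynF at 232 ± 28.2 and COX7A at 184 ± 22.5 lay far below ATPsynbeta, whereas in control they were at 481 ± 40.6 and 437 ± 34.5 and overlapped it within 1 SD. The lowest tested genes were in complex I, ND-13A at 26.7 ± 4.95 with CncC overexpression and ND-B14.5A at 32.8 ± 2.70 in control. Across the 62 genes the log2 fold change ran against the log2 control level per kb (Pearson's r = -0.51, Spearman's rho = -0.53). This describes genes that share libraries and, through the control libraries, part of the same measurement.

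Exon length moved with the fold change over the whole table, where the log2 fold change increased by 0.206 per doubling of exon length. The subunit genes are short, with a median exon length of 862 bases. Among the 4352 tested genes of 524 to 2360 bases, the 5th to 95th percentile of the subunit genes, 42.7% were lower and the median log2 fold change was -0.21. In the interval over 500 and up to 1000 bases, 39 subunit genes had a median of -0.83 beside -0.46 for all 986 genes tested. Over 1500 and up to 2500 bases, 9 subunit genes had a median of -0.55 beside -0.08. In both intervals the subunit genes had the lower median.

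**Figure D3:**
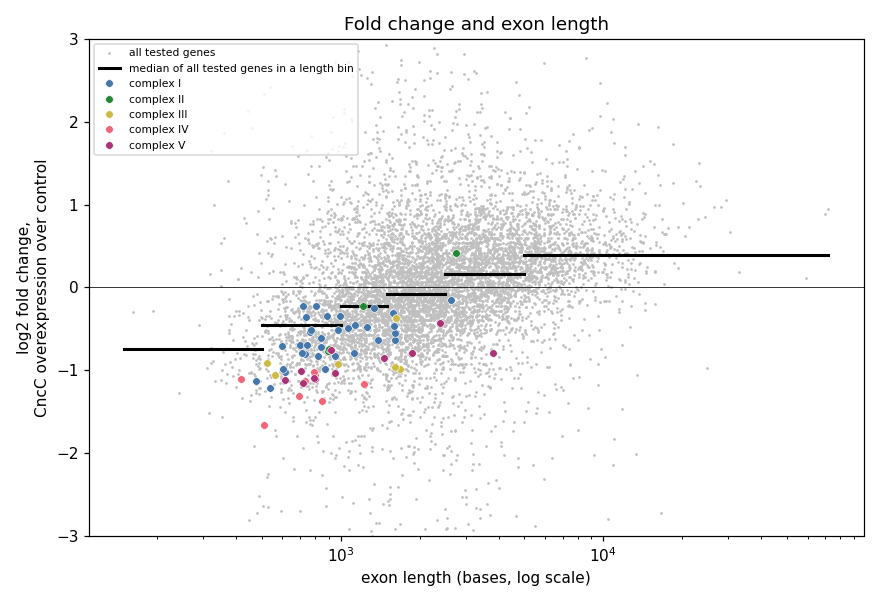
Log2 fold change (CncC overexpression over control, y axis) against exon length (x axis, log scale) for all tested genes with a known length (grey), the 62 subunit genes without an L suffix (coloured by complex) and the median of all genes in each length interval (black lines); 113 genes lie outside the plotted range. The medians run from -0.74 up to 500 bases to 0.39 over 5000 bases, and most coloured points lie below the line of their interval.

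With the length trend removed within each library, 52 of the 62 genes were lower, SdhA was still higher (0.35), and the median was -0.48, beside 32.7% lower over all 8159 genes with a length and 35.7% in the length range of the subunit genes. The 4 calls lost were ND-18, ND-B17, ND-PDSW and ND-SGDH, all of complex I, and none was gained. The order of the complexes kept IV and V at the low end, with 25, 2, 6, 8 and 11 genes lower and medians of -0.33, -0.25, -0.62, -0.83 and -0.74 for complexes I to V. COX8 was at -1.16, COX7C at -1.05 and UQCR-C2 at -0.91. Over the 62 genes, the correlation of fold change with log2 exon length was r = 0.53 (rho = 0.51) before removal and r = 0.11 (rho = 0.11) after it, while that with the control level per kb was r = -0.50 (rho = -0.48) after it.

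Of the 24 L paralogs, 17 had at most 3 counts in every library. The other copy of each pair, named by the same symbol without the L or, for 4 paralogs, as levy, cype or sun, had at least 354 counts in every library, whereas the highest count of any paralog was 108. Of the 24, 10 had no count in any of the 6 libraries: ND-24L, ND-49L, ND-B14.5AL, SdhCL, UQCR-11L, UQCR-14L, COX6CL, COX7AL2, ATPsynCF6L and ATPsynGL. A count of 0 allows up to 3 counts in a library, so that expression below that level was not detectable at this depth. In 7 more no library exceeded 3 counts: ND-51L1 (0, 0 and 3 with CncC overexpression, none in control), ND-51L2, SdhAL and ATPsynbetaL (a single count each, with CncC overexpression), COX7AL (1, 2 and 2, none in control), COX6AL (a single control count) and UQCR-6.4L (2 counts in control replicate 2). The male germline markers other than mia were near 0 as well, and the dissected animals were females. Whether either bears on the counts of the paralogs was not tested.

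**Figure D4:**
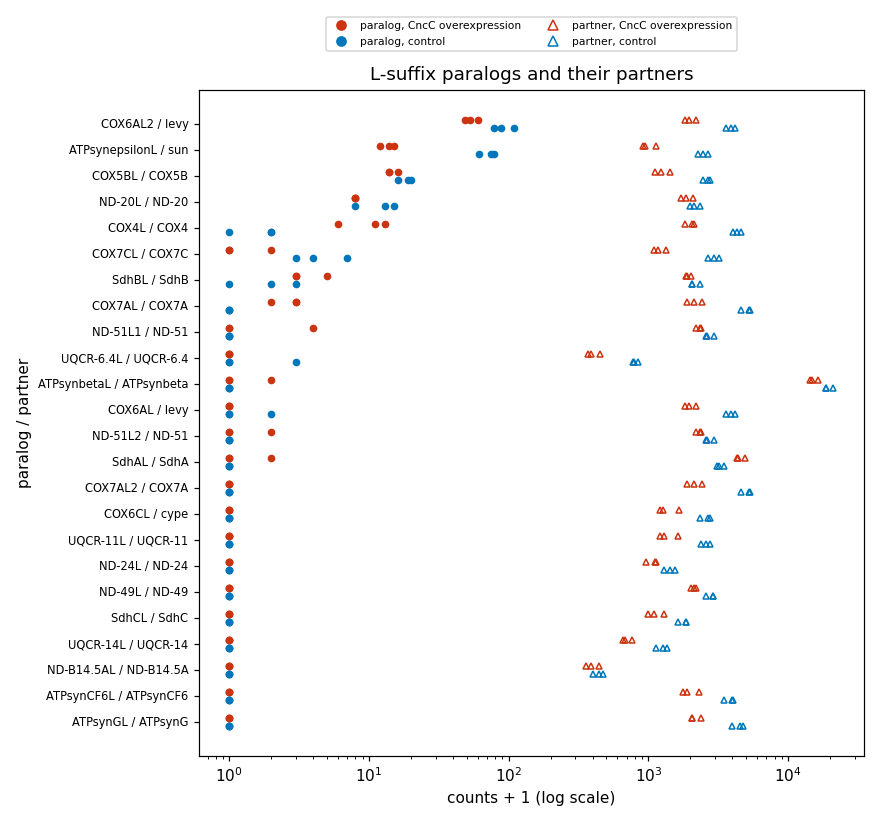
Counts plus 1 per library (x axis, log scale) of each L paralog (filled circles) and the other copy of its pair (open triangles), with CncC overexpression in red above control in blue. Paralogs lie at or below 108 counts and the other copies at or above 354, and COX6AL2 is the highest of the paralogs.

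The remaining 7 paralogs had counts over 3 in some library. ATPsynepsilonL, on chromosome 3R from 10121773 to 10122320, encodes a second epsilon subunit beside sun. It had 14, 13 and 11 counts with CncC overexpression, against 77, 74 and 60 in control, a log2 fold change of -2.52 ± 0.24 (edgeR adjusted p = 2.82e-05), larger in size than that of any of the 62 genes. The other copy, sun, had 1140, 945 and 913 counts with CncC overexpression against 2279, 2664 and 2475 in control (-1.37 ± 0.11, edgeR adjusted p = 1.36e-05). COX6AL2, beside levy, had 59, 52 and 48 counts with CncC overexpression against 78, 87 and 108 in control (-0.85, edgeR adjusted p = 0.00506), and 67.0% of its exon bases are shared with Ir75d on the same strand or Prp6 on the other. COX5BL had 13, 15 and 13 counts with CncC overexpression against 18, 19 and 15 in control. The change of COX5BL did not pass the test (-0.40, edgeR adjusted p = 0.268), and all its exon bases lie opposite Trmt6. It starts at 6559431 on chromosome 2L, on the same strand as COX5B, which ends at 6559308.

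The last 4 had too few counts for the filter. COX4L was the only L paralog that was higher by a test, although one without a filter on low counts: it had 5, 12 and 10 counts with CncC overexpression, against 1, 1 and 0 in control (edgeR adjusted p = 0.0032). The ratio of its summed CPM was 13.4, with a 95% counting interval from 3.38 to 117. Its partner COX4 moved the other way, at -1.17, and had no library under 1822 counts. COX7CL had 0, 0 and 1 counts with CncC overexpression against 2, 3 and 6 in control (edgeR adjusted p = 0.0383 without the filter) and lies next to COX7C, from 10050348 to 10050874 on chromosome 2R. ND-20L had 7 counts in each CncC overexpression library, against 12, 7 and 14 in control, and SdhBL had 2, 2 and 4 with CncC overexpression against 0, 1 and 2 in control. Neither passed without the filter (edgeR adjusted p = 0.24 and 0.33).

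Subunit genes were spread over the chromosomes. Of those tested without an L suffix, 11 of 11 were lower on 2L, 9 of 11 on 2R, 13 of 13 on 3L, 13 of 13 on 3R, 2 of 2 on chromosome 4 and 8 of 12 on X. Over all genes tested, the share lower was 34.5% on 2L, 30.6% on 2R, 32.5% on 3L, 33.2% on 3R, 16.7% on chromosome 4 and 26.9% on X. Median log2 fold changes of the subunit genes were -0.81, -0.98, -0.76, -0.85, -0.45 and -0.50 in that order, beside -0.07, -0.01, -0.02, -0.05, 0.20 and 0.08 for all genes tested. The subunit genes on X included 4 of the 5 genes that were not called, namely ND-20, ND-75, ND-B14.5A and ND-MNLL, all of complex I.

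Other nuclear subunits whose symbols the rule does not match were also lower. Of the 11 listed, 8 were found outside the 87, 7 of these were tested, and all 7 were lower, with a median log2 fold change of -0.98. Over all genes tested 31.6% were lower, and 42.7% in the length range of the subunit genes. Besides blw and sun they were RFeSP (-0.81), the iron-sulfur protein of complex III, Cyt-c1 (-0.83), its cytochrome, ox (-1.13), a small subunit of the same complex, and levy (-1.03) and cype (-0.98) of complex IV. Searching by synonym, added after the values were seen, found 2 more subunits, NP15.6 (-0.59) and CG40472 (-0.67), both lower. With the length trend removed NP15.6 was at -0.18 and still called, while CG40472, at -0.13, was not (edgeR adjusted p = 0.237). Cyt-c-d, the second cytochrome c gene, had at most 3 counts in any library, while Cyt-c-p was not matched by symbol. Of the 13 subunits encoded in mitochondrial DNA, 12 were tested and 9 were lower (median -0.72), and 6 with the length trend removed. The shares lower over all genes were 31.6% before removal and 32.7% after it. The largest decreases were those of mt:ND3 (-1.56) and mt:ND1 (-1.30) of complex I, while mt:CoI, the catalytic subunit of complex IV, had 27374, 28889 and 27490 counts with CncC overexpression, against 37258, 44287 and 57446 in control (-0.80 ± 0.16, edgeR adjusted p = 0.00184). Control replicate 3 was the highest control library for most of these transcripts, and the number lower was 6 without CncC overexpression replicate 3.

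**Figure D5:**
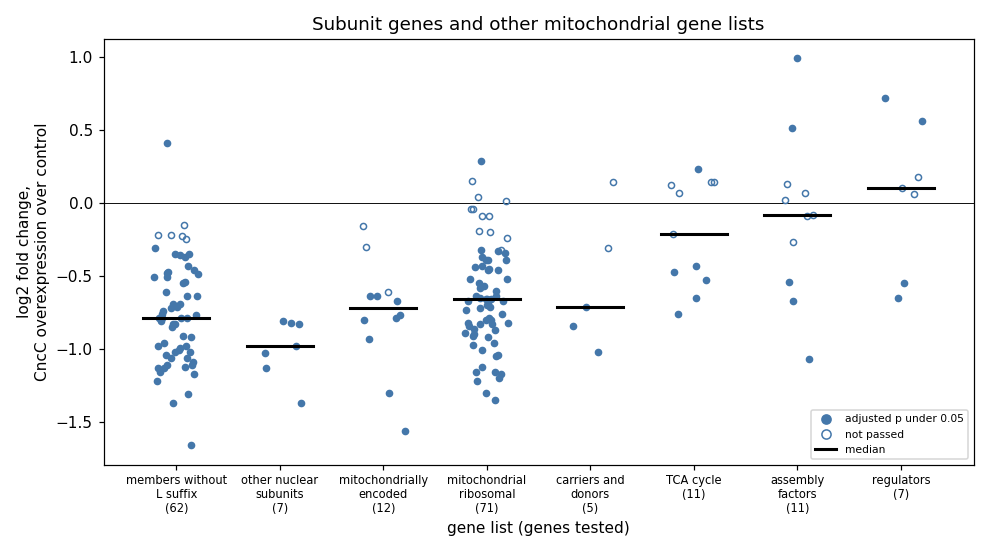
Log2 fold change (CncC overexpression over control, y axis) of the subunit genes without an L suffix and of other mitochondrial gene lists; filled points passed the test, open points did not, and black lines are medians. The medians are -0.79 for the subunit genes, between -0.98 and -0.66 for the next 4 lists, and -0.21, -0.08 and 0.10 for TCA cycle enzymes, assembly factors and regulators.

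Genes that build or serve the complexes are to be read beside the 31.6% lower and 30.9% higher over all genes tested. Of 28 assembly factors listed, 11 were found under those symbols and tested, with 3 lower, 2 higher and a median of -0.08, a share lower near that of all genes, or 3 lower and 3 higher with the length trend removed. Sdhaf3, an assembly factor of complex II, was lower (-1.07), as were Ttc19 (-0.67) and Coa8 (-0.54). Sirup, another complex II assembly factor, was higher (0.99 ± 0.26, edgeR adjusted p = 0.00696), with 1330, 1026 and 530 counts with CncC overexpression, against 500, 440 and 446 in control. Nubpl, which inserts iron-sulfur clusters into complex I, was higher at 0.51, a call that was lost once the length trend was removed. Of 11 TCA cycle enzymes tested, 5 were lower and 1 higher (median -0.21), or 7 lower and 2 higher with the length trend removed. The 1 higher was Idh3g (0.23), whose call was lost without CncC overexpression replicate 2 or control replicate 1 or 3. The largest decrease among them was that of kdn, citrate synthase (-0.76), followed by ScsbetaG (-0.65) and Scsalpha1 (-0.53), both of succinyl-CoA synthetase. Among 7 regulators of respiratory genes, 2 were lower and 2 higher, or 2 lower and 3 higher with the length trend removed. Of these, TFAM (-0.65), which packages mitochondrial DNA, and mtTFB2 (-0.55), a mitochondrial transcription factor, were lower, while PolrMT (0.56), the mitochondrial RNA polymerase, and ewg (0.72), the fly counterpart of nuclear respiratory factor 1, were higher. Of 5 carriers and electron donors tested, porin (-1.02), the outer membrane channel, and the ADP/ATP carriers sesB (-0.84) and Ant2 (-0.71) were lower, with 4 lower and 1 higher with the length trend removed. The 71 mitochondrial ribosomal protein genes, which are short too, had 59 lower and 1 higher (mRpL39, 0.29) with a median of -0.66, or 48 lower and 5 higher with the length trend removed.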

How the data were processed

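The authors deposited whole-number read counts per gene for 13955 genes in each of the 6 libraries. The submitters' processing notes name FastQC 0.11.5, Bowtie and BDGP6, and the counting tool and its use of strand are not given in the sources used here. The quasi-likelihood test of edgeR 4.0.16 (R 4.3.3) was applied to the deposited counts after TMM scaling and filterByExpr, p-values were adjusted over 8361 genes by Benjamini-Hochberg, and a gene was called at an adjusted p under 0.05. Each standard error was derived from the fold change and the F statistic. The common biological coefficient of variation was 0.115. Symbols came from the reference gene table (13661 identifiers matched), and exon lengths and positions from Ensembl's annotation of BDGP6.54. The length trend was removed by loess (span 0.5) within each library. Other fits used upper-quartile scaling, total counts or DESeq2's size factors in edgeR, limma-voom with limma 3.58.1, DESeq2 1.42.0 itself, other filters and limits, a replicate block, and each library left out. The procedures were tested on simulated data. Intervals cover counting error only.

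Genes named were those fixed by role, the 2 largest changes in each direction per complex among called genes without overlap, every L paralog, up to 3 genes per other list and those whose call changed with length removal. Others named were chosen after their values were seen. Members and lists were chosen with earlier results of these data known. Reads common to a gene and its paralog, or to overlapping or antisense genes, cannot be separated. Promoter motifs were not analysed here. Some listed genes, such as Cyt-c-p, were not matched by symbol and are not reported, although they may be among the genes tested.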

Additional observations from a re-analysis of the deposited data

How the results depend on the processing

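The number of subunit genes lower was 56 of 62, and 54 to 60 when each library was left out in turn, with a median log2 fold change from -0.87 to -0.70. Complex I had 27 to 32 lower, complex II 2 to 3, and complexes III, IV and V 6, 8 and 11 throughout, while SdhA was the 1 gene higher in each of these fits. With fold limits of 1.4 and 0.6 the subunit genes had 35 lower and 0 higher, and complex I 10 lower. The median was -0.86 with upper-quartile scaling, -0.73 with total counts only and -0.48 with the exon length trend removed, with or without the replicate block. Removal of that trend reversed the sign of ND-PDSW (0.01), ND-B14.5A (0.11, or 0.12 with the replicate block), ND-MNLL (0.15) and COX5BL (0.02), none of them past the test, since the fitted trend adds to the value of short genes.

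The replicate numbers do not pair the libraries by any label, and the correlations of same-numbered libraries were -0.209, 0.088 and 0.127. With the replicate block 55 genes were lower, 28 of them in complex I, with a median of -0.79, and ND-SGDH lost its call. Not every library correlated best with its own number. The 10 L paralogs at 0 in every library could not be tested at this depth, and 11 others were tested only without the filter on low counts.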
